A study of Nematostella vectensis with 30 samples.

Results

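The miRNA miR-2022 of the sea anemone Nematostella vectensis was followed through all small RNA libraries of a study on its 2 Argonaute proteins, AGO1 and AGO2. Every entry whose name begins with nve-miR-2022 was taken, which gave 2 arms, nve-miR-2022-3p and nve-miR-2022-5p, among the 255 arms counted in the immunoprecipitation (IP) libraries and the 257 arms counted in the knockdown (KD) libraries. Both arms passed the filter on low counts in both tables. RNA bound by AGO1, by AGO2 and by total IgG, the negative control, was sequenced from whole early planulae, primary polyps and adult males, with 2 biological replicates each, or 18 libraries in 9 groups. For the KDs, zygotes were injected with a translation-blocking morpholino (MO), an antisense oligonucleotide that stops a protein from being made, against AGO1 (AGO1 KD, set against Control1) or against AGO2 (AGO2 KD, set against Control2), and planulae were sequenced in 3 biological replicates of each of the 4 groups. Both control groups carried MO as well, and the methods name a standard control MO. The KD lowers a protein in whole animals by MO and is no mutation. The small RNA counts hold no measure of AGO protein. The paper checked each KD by Western blot on planulae and reports the AGO bands as missing or much weaker after the KD.

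A miRNA is cut from a hairpin precursor as a duplex of 2 arms. An Argonaute keeps one arm, the guide, which finds target transcripts by pairing, while the other arm, the star, is usually discarded and degraded. Cnidarian miRNAs often pair with their targets along most of their length and direct target cleavage. miR-2022 is among the few miRNAs shared by distant cnidarians, and in Nematostella it is known from the stinging cells, the cnidocytes. The 3p arm is the guide and the 5p arm the star. Both mature sequences are shown because the strand comparisons turn on them, as the deposited tables give them, from 5′ to 3′ with the seed (bases 2 to 8) in capitals.
nve-miR-2022-3p: uUUGCUAGuugcuuuugucccgc
nve-miR-2022-5p: gGGAUAAAucaacugucaagug

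The guide has 23 bases and the star 22. Each seed occurred in 1 of the 255 arms, so no other arm of the table shares a seed with either. A computed duplex of both arms paired 18 bases of the guide. The unpaired guide bases were at positions 5, 12, 13, 22 and 23, counted from the 5′ end, so 1 of them lies in the seed. For comparison, the conserved guides most often named beside miR-2022 below each carry a different seed.
nve-miR-2025-3p: uUUUUUAGcccgcggaaguugu
nve-miR-2030-5p: uAGCAUAAcauuguaagagauu

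The libraries differed widely in depth. miRNA counts per library ran from 271198 to 6194385 in AGO1 IP, from 478587 to 7833947 in AGO2 IP and from 9948 to 66399 in IgG IP, and from 23099 to 70321 in the KD libraries. Levels in IP libraries are given as reads per 1000000 genome-mapped reads (RPM). miRNA counts equalled 2.64% and 2.84% of the genome-mapped reads in AGO1 IP of early planulae but 99.0% and 101% in AGO1 IP of primary polyps, a contrast that weighs on every level set across stages. Levels in KD libraries are spike-in scaled reads, which are reads per 1000000 reads of the mean of 4 synthetic spike-in RNAs added to each sample. Intervals on shares are 95% Wilson intervals and cover counting error only.

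The guide was found mainly with AGO1 at each of the 3 stages. In early planulae nve-miR-2022-3p had 5982 and 4170 RPM in AGO1 IP, against 92.9 and 95.6 in AGO2 IP and 32.7 and 81.6 in IgG IP. AGO1 IP lay far above both other groups there, and AGO2 IP and IgG IP lay close to each other. In primary polyps it had 11452 and 14850 RPM in AGO1 IP, against 262 and 161 in AGO2 IP and 390 and 576 in IgG IP. Here IgG IP was above AGO2 IP in both replicates, although only 66399 and 62048 miRNA reads stood behind those IgG libraries. In adult males the values were 275 and 176 RPM in AGO1 IP, 9.64 and 8.19 in AGO2 IP and 4.87 and 3.12 in IgG IP. The lowest group rested on 20 and 6 reads.

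**Figure D1:**
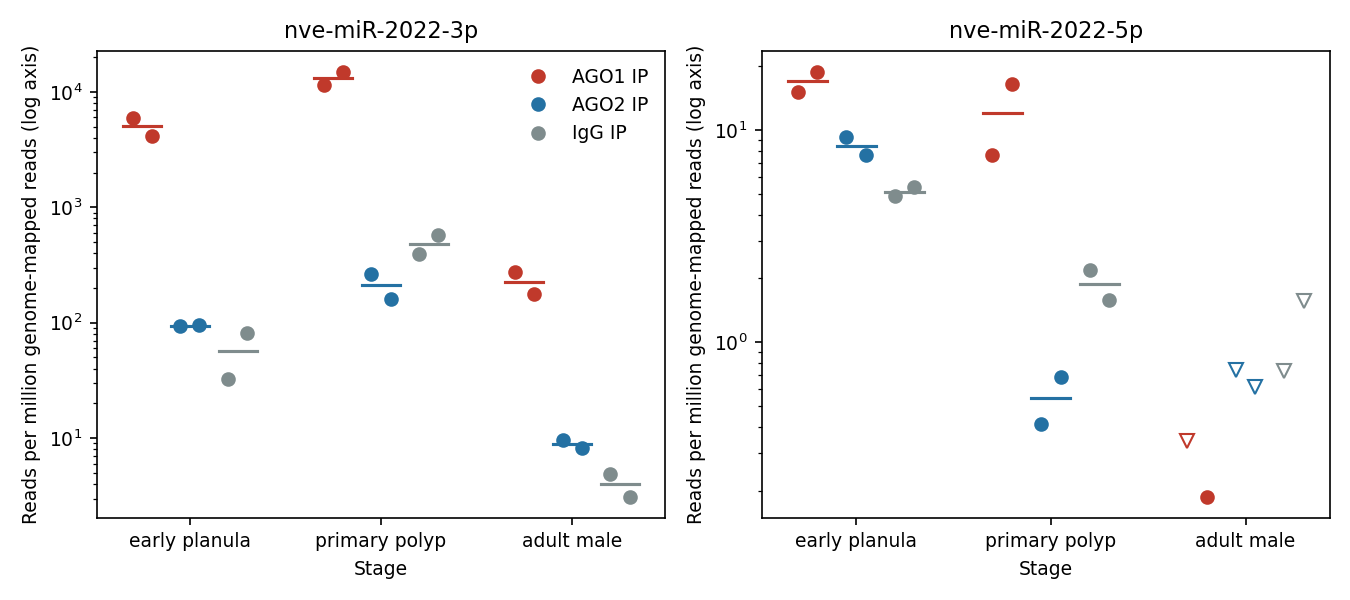
RPM, reads per 1000000 genome-mapped reads (log axis), of nve-miR-2022-3p (left) and nve-miR-2022-5p (right) in AGO1 IP, AGO2 IP and IgG IP libraries at 3 stages, with each point 1 library and lines the means of 2. Open triangles mark libraries without a read at the level of 3 counts, and the filled adult male point of the 5p arm is a single read. AGO1 IP of the 3p arm lies above AGO2 IP and IgG IP at every stage.

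The difference between AGO1 IP and AGO2 IP was larger than the spread between replicates at every stage. In edgeR's quasi-likelihood test with Benjamini-Hochberg adjustment over all 196 arms tested, nve-miR-2022-3p was higher in AGO1 IP by 5.75 ± 1.01 on the log2 scale (SE, adjusted p = 0.000207) in early planulae. There 10.7% of all arms were called higher in AGO1 IP, and the median arm stood at -1.96. In primary polyps the difference was 5.96 ± 1.02 (SE, adjusted p = 3.37e-05), with 15.8% of arms called higher and a median of -2.39. In adult males it was 4.66 ± 0.97 (SE, adjusted p = 0.000810), with 12.2% called higher and a median of -1.22. Of the 196 arms, nve-miR-2022-3p had the highest fold change in early planulae, the 4th highest in primary polyps and the 8th highest in adult males.

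The preference can also be written as the share of the averaged normalised reads of both AGOs that came from AGO1. Over the 4 pairings of single AGO1 and AGO2 libraries, this share of nve-miR-2022-3p lay between 97.8% and 98.5% for early planulae, between 97.8% and 98.9% for primary polyps and between 94.8% and 97.1% for adult males. The share was also ranked among guides whose AGO1 IP and AGO2 IP means summed to at least 20 normalised reads. It was the highest share of 62 guides in early planulae, the 2nd of 84 in primary polyps and the 6th of 80 in adult males. A test of whether the difference between the AGOs changed with stage gave an adjusted p of 0.778 by edgeR, and 3.57% of arms were called. That value misses the threshold and does not show that the preference was equal. With library sizes set by the sum of miRNA counts, the same test gave an adjusted p of 0.0102.

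**Figure D2:**
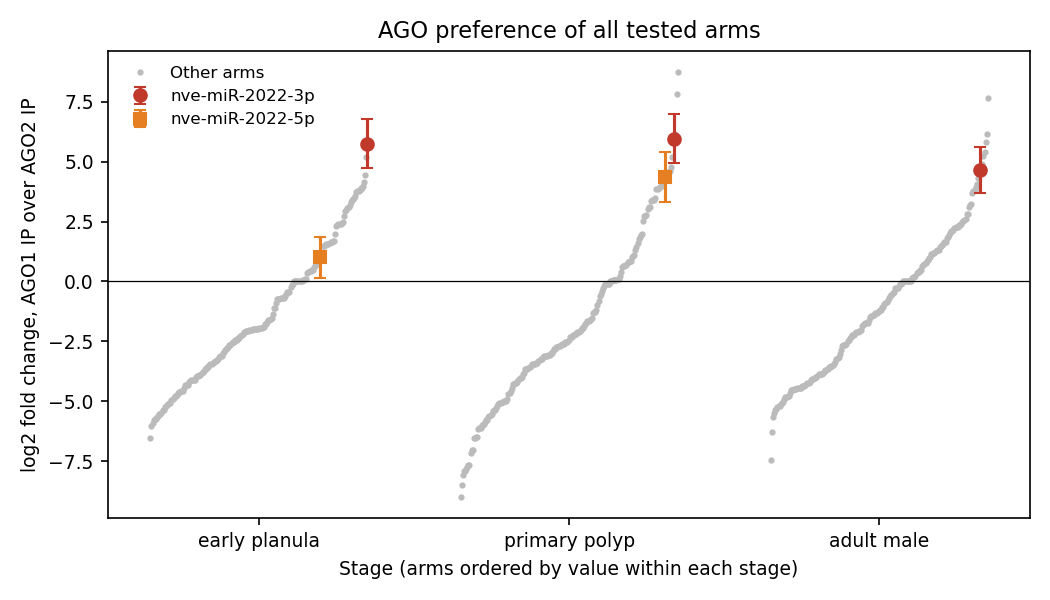
log2 fold change of AGO1 IP over AGO2 IP for the 196 tested arms at 3 stages, ordered by value within each stage, with bars of 1 SE for both arms of miR-2022. The 3p arm stands at 5.75, 5.96 and 4.66, and the 5p arm at 1.0 in early planulae and 4.36 in primary polyps; the adult male value of the 5p arm, which rests on 1 read, is not marked.

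The conserved guides are 6 other guides known from other anthozoans, the group of sea anemones and corals. Of these 6, 5 were higher in AGO1 IP in early planulae (median 3.02 on the log2 scale), 5 in primary polyps (median 4.19) and 2 in adult males (median 1.42). nve-miR-2036-3p, the exception, was lower in AGO1 IP of adult males, where 30.1% of arms were, by 3.52 ± 1.02 (SE, adjusted p = 0.00478 by edgeR), and it stood at -0.25 in early planulae and -1.27 in primary polyps without passing the test. Of 5 further guides, taken for their preference for AGO1 so that their direction is no independent evidence, all 5 were higher in AGO1 IP of early planulae (median 3.89), 4 in primary polyps (median 3.86) and 1 in adult males (median 1.20). That one was nve-miR-2040b-3p, at 3.20 ± 0.92 (SE, adjusted p = 0.00456). nve-miR-2040a-3p was lower in AGO1 IP of adult males, at -2.23 ± 0.89 (SE, adjusted p = 0.0397 by edgeR), where 30.1% of arms were. Its difference between the AGOs changed with stage (adjusted p = 0.00683 by edgeR). The counts of guides called higher stand beside 21, 31 and 24 arms called higher of all 196 tested at the first, middle and last stage.

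Against the IgG control, nve-miR-2022-3p was enriched in AGO1 IP by 6.47 ± 1.05 on the log2 scale (SE, adjusted p = 3.86e-05 by edgeR) in early planulae, where 28.6% of arms were called higher. In primary polyps the enrichment was 4.77 ± 0.97 (SE, adjusted p = 0.000376), with 21.9% called higher. In adult males it was 5.79 ± 1.03 (SE, adjusted p = 4.38e-05), with 51.5% called higher. These values count reads per genome-mapped read. Taken per miRNA count, the enrichment over IgG was 0.37 (adjusted p = 0.780) in primary polyps and 0.44 (adjusted p = 0.907) in adult males, and only in early planulae did it keep the call, at 3.78.

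AGO2 IP was not distinguishable from IgG for this guide. The log2 difference was 0.72 ± 0.83 for early planulae (SE, adjusted p = 0.452 by edgeR), -1.19 ± 0.84 for primary polyps (SE, adjusted p = 0.202) and 1.13 ± 0.89 for adult males (SE, adjusted p = 0.243). At the same stages 57.7%, 59.2% and 76.5% of all arms were called higher in AGO2 IP than in IgG IP, and the median arm stood at 3.90, 3.13 and 4.65. In primary polyps, where the guide was on the lower side, 0.51% of arms were called lower. The sign for nve-miR-2022-3p in early planulae and adult males depended on the scale. Per miRNA count the log2 difference was -3.36, -4.93 and -3.21 from the first stage to the last (adjusted p = 0.000220, 4.51e-06 and 0.00420), with AGO2 IP below IgG IP each time.

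Ordered by mean RPM, the 9 groups ran from AGO1 IP of primary polyps (13151) and AGO1 IP of early planulae (5076) through IgG IP of primary polyps (483), AGO1 IP of adult males (226), AGO2 IP of primary polyps (211), AGO2 IP of early planulae (94.3) and IgG IP of early planulae (57.2) to AGO2 IP of adult males (8.92) and IgG IP of adult males (4.0). The 8 neighbouring pairs in this order were tested with genome-mapped reads as library size, the scale of the levels, although 6 of them cross stages. Both the pairs and their direction came from sorting these same values, so only the size of each step was open. On that scale 2 pairs differed in edgeR's test. These were AGO1 IP of early planulae over IgG IP of primary polyps (3.39 ± 0.91 on the log2 scale, SE, adjusted p = 0.00620) and IgG IP of early planulae over AGO2 IP of adult males (2.68 ± 0.89, SE, adjusted p = 0.00763). For the other 6 pairs the adjusted p lay between 0.224 and 0.919. Per miRNA count, the scale of the stage comparisons described next, both called pairs kept their sign and call (4.18 and 7.37, adjusted p = 2.12e-05 and 5.29e-09), all 8 pairs passed the test, and 4 had the opposite sign. The order given is that of the RPM scale.

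How the guide bound by AGO1 changed over development depended on the scale. As a share of the guide counts of a library, nve-miR-2022-3p in AGO1 IP made up 22.4% and 16.7% at the early planula stage, 1.16% and 1.48% at the primary polyp stage and 0.102% and 0.104% in males. It ranked 1st and 2nd by count among the guides of the early planula libraries, 7th and 6th in those of polyps, and 19th and 28th in those of males. Per miRNA count it was thus lower in primary polyps than in early planulae by 3.81 ± 0.73 on the log2 scale (SE, adjusted p = 1.74e-05 by edgeR), beside a median arm at -3.14 and 65.8% of arms called lower. Per genome-mapped read the sign was the opposite, at 1.37 ± 0.84 (SE, adjusted p = 0.224), and with TMM factors the difference was -0.28 (adjusted p = 0.849).

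The later step held on each scale tried. nve-miR-2022-3p was lower in AGO1 IP of adult males than of primary polyps by 3.68 ± 0.72 on the log2 scale per miRNA count (SE, adjusted p = 2.06e-05 by edgeR). At this step 15.8% of arms were called lower, and the median arm stood at 0.47. Under the alternatives the difference lay between -5.86 and -3.50, with an adjusted p of at most 0.00317. Of the 6 conserved guides, 1 was higher and 2 were lower over this step, with a median of -0.90, while 37.8% of all arms were called higher. In whole animals, fewer cells that make a miRNA and less of it per cell cannot be told apart.

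The star arm was rare and followed AGO1 less closely in early planulae. nve-miR-2022-5p had 15.2 and 18.8 RPM in AGO1 IP, 9.25 and 7.65 in AGO2 IP and 4.89 and 5.37 in IgG IP at that stage, from 176 and 193, 97 and 36, and 26 and 20 reads. The 3 groups did not overlap, but AGO1 IP was above AGO2 IP by only 1.0 ± 0.86 on the log2 scale (SE, adjusted p = 0.326 by edgeR). AGO1 IP over IgG IP was 1.73 ± 0.89 (SE, adjusted p = 0.132) and AGO2 IP over IgG IP 0.72 ± 0.88 (SE, adjusted p = 0.468), and both signs turned per miRNA count, to -1.26 and -3.61. Per miRNA count the star passed the test as higher in AGO1 IP than in AGO2 IP, at 2.36 (adjusted p = 0.0186).

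In primary polyps nve-miR-2022-5p had 7.62 and 16.6 RPM in AGO1 IP, 0.411 and 0.683 in AGO2 IP and 2.19 and 1.58 in IgG IP. The AGO2 values rested on 2 and 9 reads and the IgG values on 1 and 3. AGO1 IP was above AGO2 IP by 4.36 ± 1.03 on the log2 scale (SE, adjusted p = 0.000520 by edgeR), and 15.8% of arms were called higher. The step in this preference from early planulae to primary polyps was 3.35 ± 1.30 on the log2 scale, a comparison chosen after the values were seen, and it did not pass the test (adjusted p = 0.532 by edgeR). In adult males the star had 0 and 1 reads in AGO1 IP and none in the other 4 libraries, which allows a star share of up to 0.125% in the first AGO1 library (0 of 2400 reads) and of up to 7.69% in the first AGO2 library.

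Setting both arms of a library against each other removes the library scale. In early planulae the star made up 0.253% (95% interval 0.218 to 0.293) and 0.449% (0.390 to 0.517) of miR-2022 reads in AGO1 IP. In AGO2 IP it made up 9.05% (7.47 to 10.9) and 7.41% (5.40 to 10.1), and in IgG IP 13.0% (9.03 to 18.4) and 6.17% (4.03 to 9.34). The AGO1 libraries lay more than an order of magnitude below all others, whose intervals overlapped. The ratio of guide to star was higher in AGO1 IP than in AGO2 IP by 4.73 ± 0.89 on the log2 scale (SE, adjusted p = 1.12e-06 over 89 miRNAs, edgeR with the library as block), where 19.1% of miRNAs were called higher and the median was -0.12.

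The same ratio was compared with IgG after the shares were seen. It was higher in AGO1 IP than in IgG IP by 4.88 ± 0.92 on the log2 scale (SE, adjusted p = 3.72e-06 by edgeR), where 7.87% of miRNAs were called higher. Between AGO2 IP and IgG IP it differed by 0.16 ± 0.90 (SE, adjusted p = 1), where 5.62% were called higher, and the sign turned without the first IgG library, to -0.44.

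In primary polyps the star share was low everywhere. It was 0.0665% and 0.111% in AGO1 IP, 0.156% and 0.424% in AGO2 IP and 0.559% and 0.273% in IgG IP. The guide-to-star ratio differed between AGO1 IP and AGO2 IP by 1.82 ± 1.06 on the log2 scale (SE, adjusted p = 0.177 by edgeR), beside 27.0% of miRNAs called higher and a median of 0.57. Within AGO1 IP the ratio of primary polyps over that of early planulae was 1.95 ± 0.86 on the log2 scale (SE, adjusted p = 0.173), where 6.74% were called higher, again chosen after the shares were seen. Between AGO1 IP and AGO2 IP of primary polyps, the ratio of 5 of the 6 conserved guides was higher in AGO1 IP and that of 1 was lower, where 27.0% of all miRNAs were called higher and 16.9% lower. In early planulae 3 were higher in AGO1 IP than in AGO2 IP and 1 was lower, where 19.1% of all miRNAs were called higher and 12.4% lower.

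**Figure D3:**
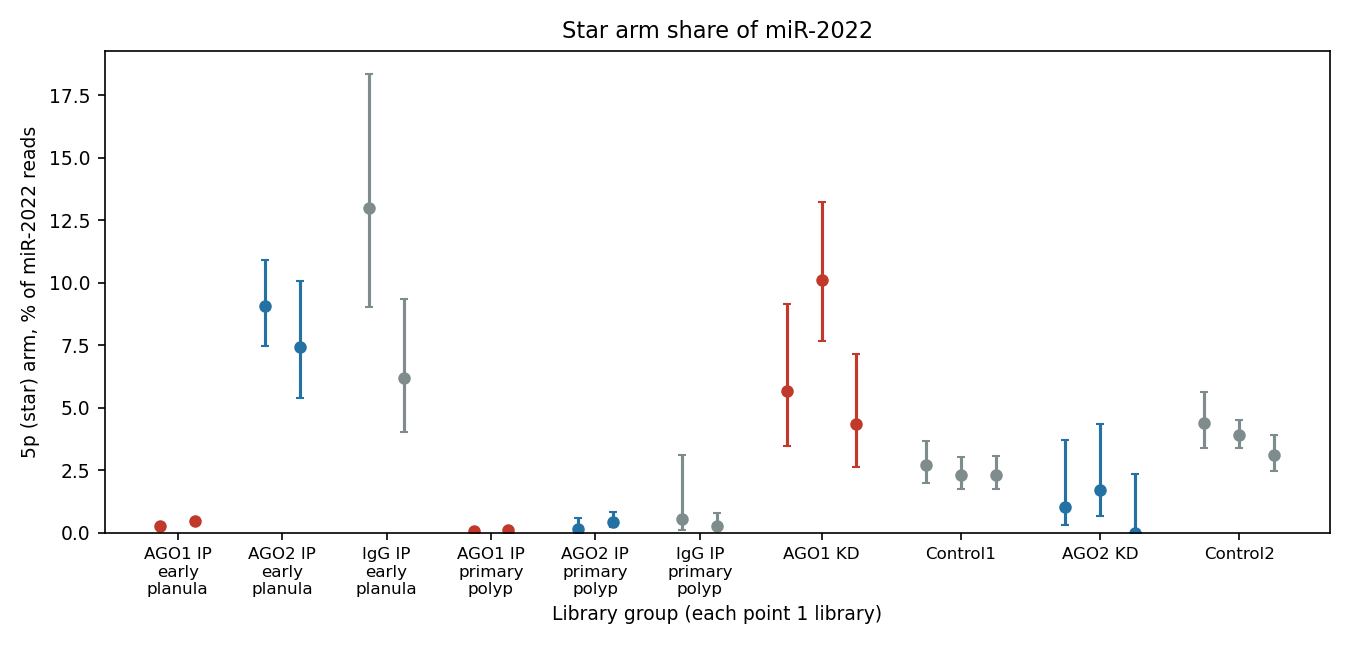
Share of miR-2022 reads that were the 5p (star) arm, in percent from 0, with each point 1 library and bars the 95% Wilson interval; groups from left are AGO1, AGO2 and IgG IP of early planulae, the same of primary polyps, then AGO1 KD, Control1, AGO2 KD and Control2. AGO1 IP of early planulae lies under 0.5% against at least 6.17% in AGO2 and IgG IP, and AGO1 KD lies above Control1 while AGO2 KD lies below Control2.

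In the KD libraries the guide was lower after either KD. nve-miR-2022-3p had 11519, 8811 and 6596 spike-in scaled reads in AGO1 KD, from 250, 409 and 308 reads. In Control1 it had 16225, 28354 and 24977, from 1446, 2048 and 1937 reads. All AGO1 KD values lay below all Control1 values. In AGO2 KD it had 3364, 5234 and 2217, from 191, 229 and 159 reads. In Control2 it had 36975, 66934 and 29043, from 1246, 4416 and 2154 reads. The gap between the groups was wider here than in the other pair.

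The log2 change of nve-miR-2022-3p in AGO1 KD was -1.37 ± 0.40 (SE, adjusted p = 0.00498 by edgeR over 61 arms). Of all arms 9.84% were called lower there, 42.6% were called higher, and the median arm stood at 0.82. In AGO2 KD it was -3.62 ± 0.43 (SE, adjusted p = 1.23e-08), with 21.3% of arms called lower and a median of -0.33. Set against the median arm, the changes were -2.19 in AGO1 KD and -3.30 in AGO2 KD. The exact two-sided permutation test of the mean log2 level gave p = 0.1 for each KD, the smallest value that 3 against 3 allows.

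The change in AGO2 KD was the larger one. The AGO2 KD effect minus the AGO1 KD effect was -2.25 ± 0.56 on the log2 scale (SE, adjusted p = 0.000871 by edgeR), where 41.0% of arms were called lower and the median stood at -1.07. Scaled without the spike-ins, this difference no longer passed the test, at -0.57 per miRNA count (adjusted p = 0.394), -1.14 with TMM factors and -1.08 with DESeq2 size factors. The means of the control groups lay apart, though not past the test. Control2 averaged 44318 ± 19984 and Control1 23185 ± 6260 (SD, n = 3 each). Control2 over Control1 was 0.93 ± 0.39 on the log2 scale (SE), which gave an unadjusted p of 0.0216 and an adjusted p of 0.330, and 1.64% of arms were called higher. Directly compared, AGO2 KD averaged 3605 ± 1523 and AGO1 KD 8976 ± 2466 (SD, n = 3 each), a log2 difference of -1.32 ± 0.40 (SE, adjusted p = 0.00471), chosen after the values were seen. Per miRNA count this difference was 0.15 (adjusted p = 0.756).

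**Figure D4:**
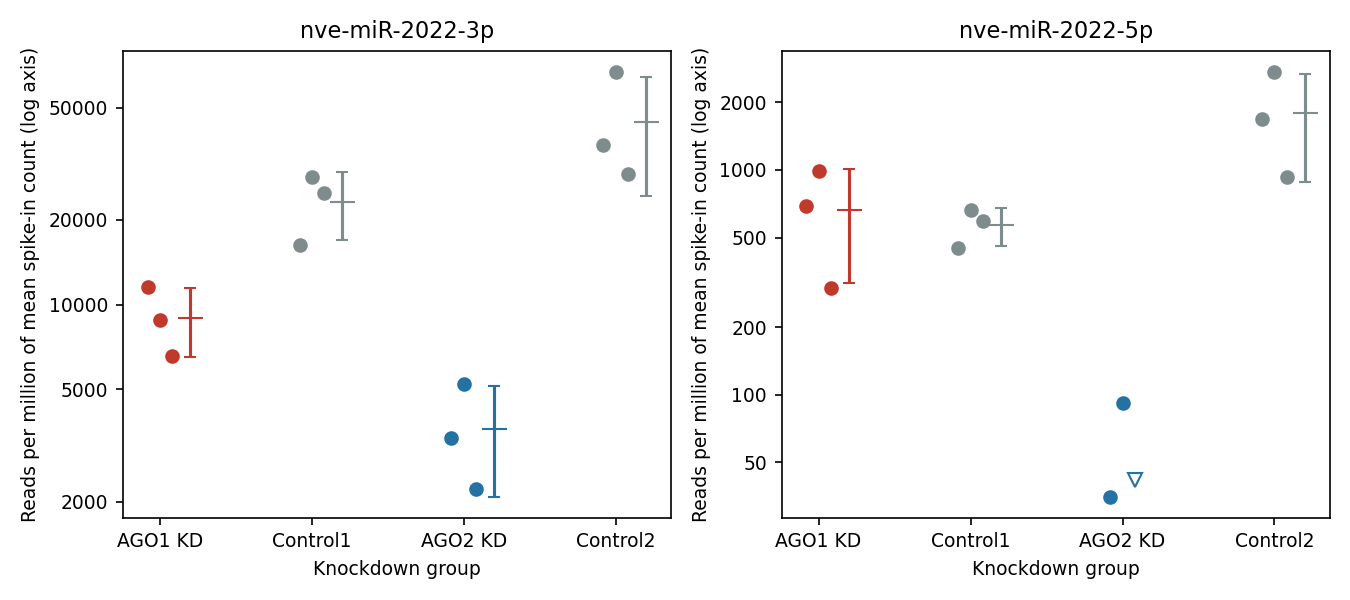
Spike-in scaled reads (per 1000000 reads of the mean spike-in count, log axis) of nve-miR-2022-3p (left) and nve-miR-2022-5p (right) in AGO1 KD, Control1, AGO2 KD and Control2, with each filled point 1 library and the bars beside them the mean and SD of 3. The open triangle marks the AGO2 KD library without a star read, at the level of 3 counts, and that group has no mean drawn. The 3p arm lies below its control in both KDs, the 5p arm in AGO2 KD.

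The star behaved differently in the 2 KDs. nve-miR-2022-5p had 691, 991 and 300 spike-in scaled reads in AGO1 KD, and 449, 665 and 593 in Control1. The groups overlapped, and the log2 change was 0.21 ± 0.55 (SE, adjusted p = 0.747 by edgeR), with a sign that turned per miRNA count, to -0.76. In AGO2 KD the star had 35.2, 91.4 and 0, from 2, 4 and 0 reads. In Control2 it had 1691, 2728 and 930, from 57, 180 and 69 reads. Its log2 change in AGO2 KD was -5.53 ± 0.73 (SE, adjusted p = 6.94e-08), beside 21.3% of arms called lower. This was the lowest fold change of the 61 arms. The AGO2 KD effect minus the AGO1 KD effect was -5.74 ± 0.92 on the log2 scale (SE, adjusted p = 3.80e-06), and it passed the test under all 25 alternatives.

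The ratio of the arms moved in opposite directions. The star made up 5.66% (95% interval 3.46 to 9.13), 10.1% (7.67 to 13.2) and 4.35% (2.61 to 7.16) of miR-2022 reads in AGO1 KD, against 2.69% (1.98 to 3.64), 2.29% (1.73 to 3.02) and 2.32% (1.74 to 3.08) in Control1. In AGO2 KD it made up 1.04% (0.285 to 3.70), 1.72% (0.670 to 4.33) and 0% (0 to 2.36, with 159 guide reads). In Control2 it made up 4.37% (3.39 to 5.63), 3.92% (3.39 to 4.52) and 3.10% (2.46 to 3.91). The shares of a KD and its own controls did not overlap in either pair, though the intervals of single libraries did.

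The guide-to-star ratio was lower in AGO1 KD than in Control1 by 1.54 ± 0.41 on the log2 scale (SE, adjusted p = 0.00115 over 31 miRNAs, edgeR with the library as block), where 29.0% of miRNAs were called lower and the median stood at -0.41. Without the second AGO1 KD library the adjusted p was 0.0794. With limma on log2 ratios it was 0.0930, and 0.0841 with the replicate block. The ratio was higher in AGO2 KD than in Control2 by 1.85 ± 0.62 (SE, adjusted p = 0.0157 by edgeR), where 12.9% were called higher and the median stood at 0.12. Without AGO2 KD replicate 1 or 3 the adjusted p was 0.0704 or 0.0616. The AGO2 KD effect minus the AGO1 KD effect on the ratio was 3.39 ± 0.73 on the log2 scale (SE, adjusted p = 2.58e-05 by edgeR), where 29.0% of miRNAs were called higher. This comparison was chosen after the shares were seen and gave 2.93 to 4.16 under 15 alternatives. The shift was not particular to miR-2022. In AGO1 KD the ratio was lower for all 5 other conserved guides tested and for 3 of 4 further AGO1 guides. In AGO2 KD it was higher for 1 of the 5 and 2 of the 4. For the difference of effects, 3 of the 5 and all 4 were higher.

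Among the 44 guides tested in the KDs, nve-miR-2022-3p had the lowest fold change in AGO2 KD and the 5th lowest in AGO1 KD. Next to it in AGO2 KD were nve-miR-2025-3p at -2.83 ± 0.40 (SE, adjusted p = 3.34e-07) and nve-miR-9433 at -2.57 ± 0.74 (SE, adjusted p = 0.00638). Its neighbours in AGO1 KD were nve-miR-9425 and nve-miR-2040a-3p on the lower side, at -2.18 and -1.49, and nve-miR-2040b-3p and nve-miR-100-5p on the other, at -1.35 and -1.0. All but nve-miR-100-5p passed the test (adjusted p = 0.0522 by edgeR for that guide). 6 arms were called lower in AGO1 KD and 13 in AGO2 KD. nve-miR-2022-3p and nve-miR-2040b-3p were called lower in both, which is 33.3% of the first list and 15.4% of the second. Beside these shares stand 21.3% of all 61 arms called lower in AGO2 KD and 9.84% in AGO1 KD. Whether the overlap is larger than lists of this size would share was not tested.

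**Figure D5:**
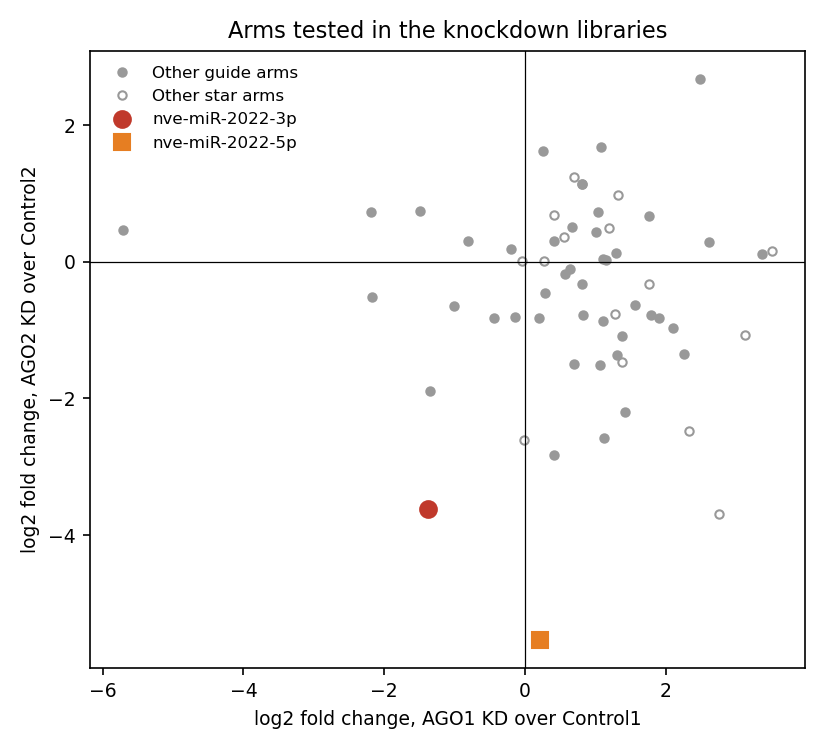
log2 fold change in AGO2 KD over Control2 (vertical) against AGO1 KD over Control1 (horizontal) for the 61 arms tested, with filled points guides, open points stars, and both arms of miR-2022 in colour. The 3p arm stands at -1.37 and -3.62, in the quadrant where both changes are negative, and the 5p arm at 0.21 and -5.53.

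Of the 6 conserved guides, 2 were higher and 1 lower in AGO1 KD (median 0.55 on the log2 scale), where 42.6% of all arms were called higher and 9.84% lower. In AGO2 KD none was higher and 3 were lower (median -1.07), where 8.2% of all arms were called higher and 21.3% lower. nve-miR-2025-3p had 8492 ± 1636 spike-in scaled reads in AGO1 KD and 6373 ± 814 in Control1, and 1878 ± 559 in AGO2 KD and 13332 ± 3931 in Control2 (SD, n = 3 each). It thus shared the change of miR-2022 in AGO2 KD, while its AGO1 KD change was 0.41 (adjusted p = 0.357). nve-miR-2037-3p ran the other way, at -2.18 in AGO1 KD (adjusted p = 0.00640) and 0.72 in AGO2 KD (adjusted p = 0.307). Of the 5 further AGO1 guides, 3 were lower and 1 higher in AGO1 KD (median -1.35), beside the 9.84% and 42.6% of all arms. In AGO2 KD 1 was lower and 1 higher (median -0.52), so the share called lower lay near the 21.3% of all arms.

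By Pearson's r of log2 levels over the 12 AGO IP libraries, the guides most like nve-miR-2022-3p among 133 were a newly annotated guide (r = 0.94), a second one (r = 0.90), nve-miR-2030-5p (r = 0.90), nve-miR-2024g-5p (r = 0.88) and one more newly annotated guide (r = 0.84). Over the 12 KD libraries and 43 guides they were nve-miR-2025-3p (r = 0.86), nve-miR-2040b-3p (r = 0.78), nve-miR-2023-3p (r = 0.70), nve-miR-100-5p (r = 0.58) and nve-miR-9431 (r = 0.54). The points share libraries, depth and scale factors, so these values are descriptions. nve-miR-2030-5p, the conserved guide nearest in the IPs, had 3439 ± 103 RPM in AGO1 IP and 645 ± 50.9 in AGO2 IP of early planulae (SD, n = 2 each). In primary polyps it had 48391 ± 16631 in AGO1 IP and 2440 ± 12.6 in AGO2 IP, so its AGO1 mean lay below that of nve-miR-2022-3p at the first stage and above it at the second.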

How the data were processed

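Small RNA reads of 30 libraries were trimmed by the authors with cutadapt and counted with the quantifier module of mirDeep2 (version 2.0.0.8 per the study's supplement), which in the KD libraries allowed no mismatch. The cutadapt version and the genome build are not given in the sources used here. The deposited IP table holds raw read counts per arm. The deposited KD table is declared to hold estimated counts (expected counts) because 1 of its lines gives the authors' spike-in means. That line was left out, and all other values were whole reads. Members and lists were chosen with earlier results of these data known.

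IP tests used genome-mapped reads from the study's supplement as library sizes (the sum of miRNA counts between stages, except where groups are ordered by RPM) and arms with at least 10 counts in 2 libraries. KD tests used the mean of 4 spike-ins and arms with at least 10 counts in 3 libraries. 3 arms repeating another were tested once. In one AGO1 IP library of primary polyps miRNA counts exceeded the genome-mapped reads, so these totals are not nested. Tests used edgeR 4.0.16 with all libraries of a table in 1 fit, in R 4.3.3, with DESeq2 1.42.0 and limma 3.58.1 as alternatives. The edgeR tests were also run on simulated counts with a spread and changes set in advance. Such runs do not show how the tests behave at the spread and low counts of these libraries. An SE is the size of the log2 change over the root of F. Strand ratios used miRNAs with at least 5 star and 50 guide counts. The duplex was computed with ViennaRNA 2.7.2, levels and figures with Python 3.11.15. Besides miR-2022, the named guides are 2 fixed lists, the 5 most alike by r (pseudocount 1) and the neighbours in KD order.

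The methods state that a KD replicate was injected with its control on the same day from 1 batch. Deviations of same-numbered libraries from group means correlated at -0.27, 0.30 and 0.10 in AGO1 KD and Control1 and at -0.25, 0.09 and -0.06 in AGO2 KD and Control2. The replicate block was an alternative, with other scales, filters and left-out libraries. The locus of miR-2022 was not used here.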

Additional observations from a re-analysis of the deposited data

Results flagged for a closer look

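The effects of the 2 KDs on miR-2022 differed in the test of the difference itself. For nve-miR-2022-3p the AGO2 KD effect minus the AGO1 KD effect was -2.25 ± 0.56 on the log2 scale (SE, adjusted p = 0.000871 by edgeR), from 3 of 3 libraries below all controls in each KD. For nve-miR-2022-5p it was -5.74 ± 0.92 (SE, adjusted p = 3.80e-06), and for the guide-to-star ratio 3.39 ± 0.73 (SE, adjusted p = 2.58e-05). Of all arms 41.0% were called lower in this difference, and 29.0% of miRNAs were called higher in that of the ratio. The 3p difference rests on the spike-in scale, and the higher level of Control2 than of Control1 enters both arm differences. The part of the control groups in the result was not tested apart from the values given.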

How the results depend on the processing

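Of 498 alternative values for 36 results, 457 kept both direction and side of the threshold. Among these are the 7 alternatives of the permutation test of each KD. Its p cannot fall below 0.1, so their side of the threshold was fixed in advance. AGO1 IP over AGO2 IP for nve-miR-2022-3p was called at each stage under every alternative, as was the 3p change in either KD. With the sum of miRNA counts as library size (genome-mapped reads between stages), AGO1 IP over IgG IP was 0.37 in primary polyps and 0.44 in adult males, AGO2 IP over IgG IP was -3.36, -4.93 and -3.21 from the first to the last stage, the test of stage gave an adjusted p of 0.0102, AGO1 IP of primary polyps over early planulae was 1.37, and for nve-miR-2022-5p in early planulae AGO1 IP over AGO2 IP was 2.36, AGO1 IP over IgG IP -1.26 and AGO2 IP over IgG IP -3.61. With TMM, the 3p values of AGO2 IP over IgG IP were -2.34, -4.25 and -1.53, the 5p values in early planulae were 2.54 for AGO1 IP over AGO2 IP and -2.50 for AGO2 IP over IgG IP, and primary polyps over early planulae was -0.28. With DESeq2 size factors the same values were -2.89, -4.90 and -3.95, then 2.15 and -3.03, then -0.38, and 5p AGO1 IP over IgG IP was -0.89. The 5p step in preference from early planulae to primary polyps passed in a fit of the compared libraries alone (3.35, adjusted p = 0.0479).

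In the KDs, the 3p difference between effects was -0.57 per miRNA count, -1.14 with TMM and -1.08 with DESeq2 size factors, and AGO2 KD over AGO1 KD was 0.15, -0.28 and -0.34. The 5p change in AGO1 KD was -0.76, -0.73 and -0.64 on those scales and -0.82 against pooled controls. The AGO1 KD strand ratio was -1.46 with limma, with and without the replicate block, which changed no other call. Leaving out single libraries gave -0.27 to 0.59 for the 5p arm in AGO1 KD, -1.80 to -1.07 and 1.41 to 2.60 for the strand ratio in AGO1 KD and AGO2 KD, and -0.44 to 0.74 for that of AGO2 IP over IgG IP. The cause of these shifts was not tested.

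The scale also moved the calls over all arms. Higher and lower calls in AGO1 IP against AGO2 IP of early planulae were 21 and 73, but 45 and 42 per miRNA count. In primary polyps they were 31 and 95, but 59 and 52 with TMM. In adult males they were 24 and 59, but 76 and 19 with DESeq2 size factors. Each stage is shown here with a different alternative scale, so these shifts cannot be compared between stages. In AGO1 KD they were 26 and 6, but 9 and 13 per miRNA count, and in AGO2 KD 5 and 13, but 19 and 10. Few reads limit the star arm in AGO2 KD, IgG IP and adult males. Each spike-in alone, leaving out libraries in the permutation tests and the miRNA-count scale for the order of the IP groups were chosen after seeing the data.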
